A study of Mus musculus with 12 samples.

Results

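Rlf, Zfp292 and Zfp654 are 3 of the 17901 genes in the deposited gene table, and they were taken from it by symbol. They encode large zinc finger proteins and are treated here as a family of paralogues. Their levels were followed in 12 RNA-seq libraries of TT2 mouse embryonic stem cells. There are 3 libraries for each of 4 groups, which cross genotype with medium. The genotypes are wild type (WT) and a double knockout of Rlf and Zfp292 (DKO). The media are serum with LIF (serum/LIF), which keeps the cells undifferentiated, and 5 µM retinoic acid (RA), given for 72 hours with LIF withdrawn. RA and the loss of LIF came together, so their effects cannot be told apart, and each RA difference below covers both. TT2 is an established line of mouse embryonic stem cells. The labels give neither the alleles of the knockout nor whether the 3 replicates of a genotype were separate clones, so p-values measure the spread between these libraries, which may be technical.

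As background, zinc finger proteins of this kind bind DNA through small folds that each hold a zinc ion. Rlf takes its name from human RLF, which was found fused to the MYCL gene in lung cancer, and alleles of mouse Rlf were recovered in a mutagenesis screen for modifiers of epigenetic silencing. Human ZNF292, the counterpart of Zfp292, is mutated in a neurodevelopmental disorder. Less is known of Zfp654. The title of the series ties RLF and ZFP292 to the CoREST complex, in which the histone demethylase LSD1 works with histone deacetylases. Retinoic acid without LIF makes embryonic stem cells leave the pluripotent state. Where 1 paralogue is lost, another is sometimes expressed at a higher level, and the DKO libraries allow the mRNA level of Zfp654 to be read for such a rise.

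In mm10 all 3 genes lie on the minus strand. Rlf spans chr4:121145883-121215084 with a transcript of 6242 bases in 8 exons. Zfp292 spans chr4:34803110-34882948 with 9986 bases in 8 exons, and the pseudogene Gm12363 overlaps it on the opposite strand without touching an exon. Zfp654 spans chr16:64780347-64851723 with 6261 bases in 9 exons. Exact windows of 50 bases tell the transcripts of the 3 genes apart. Inexact matches and sequence outside annotated transcripts were not searched. None of the 6193, 9937 and 6212 windows of 50 bases in the transcripts of Rlf, Zfp292 and Zfp654 occurred in a transcript of any other gene (0 windows each). The longest run of bases shared was 17 between Rlf and Zfp292, 14 between Zfp292 and Zfp654 and 13 between Rlf and Zfp654.

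The sequences upstream of Rlf and Zfp292 are shown because both mRNAs stood lower after RA in WT cells, as described further on. They are the 250 bases before the RefSeq start, on the minus strand of GRCm38.p6, at chr4:121215085-121215334 for Rlf and chr4:34882949-34883198 for Zfp292. Capitals mark the E-box CACGTG, the GC box GGGCGG and the CCAAT box on either strand. These motifs were chosen after the sequences had been seen.
Rlf: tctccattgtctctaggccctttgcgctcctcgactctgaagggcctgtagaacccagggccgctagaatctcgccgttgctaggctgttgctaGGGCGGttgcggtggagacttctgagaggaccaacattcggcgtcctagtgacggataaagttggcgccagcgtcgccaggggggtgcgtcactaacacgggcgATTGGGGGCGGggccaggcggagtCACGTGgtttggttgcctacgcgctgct
Zfp292: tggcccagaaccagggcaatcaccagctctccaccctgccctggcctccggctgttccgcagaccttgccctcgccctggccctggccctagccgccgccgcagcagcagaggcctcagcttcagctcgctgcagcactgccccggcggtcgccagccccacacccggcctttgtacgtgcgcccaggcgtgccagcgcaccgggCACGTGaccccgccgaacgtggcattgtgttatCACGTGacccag
Both hold CACGTG, the letters read by several helix-loop-helix factors. Rlf has 1 copy, whose first base lies at -28 from the start, and Zfp292 has 2, at -45 and -12. Of 32851 promoter windows of 300 bases (250 before and 50 after a start), 7.15% hold CACGTG. Of this pair, only Rlf has GGGCGG, with 2 copies at -156 and -47, and a CCAAT box, with 1 copy on the reverse strand at -52 that adjoins a GGGCGG. These stand in 35.7% and 37.4% of all windows.

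The longest run of bases common to both windows on the same strand lies just after the start. It is 14 bases long and is shown in capitals with 4 bases on each side, to show where the pair is most alike.
Rlf: gtggGAAGATGGCGGACGgaaa
Zfp292: ctgcGAAGATGGCGGACGatga
The capitals begin at +10 in Rlf and at +26 in Zfp292, and hold ATGGCG, letters found in known sites of the factor YY1. They occur in 2 of the 32851 windows, those of Rlf and Zfp292, from which they were chosen. Both windows were rich in CpG, with 29 in Rlf and 30 in Zfp292 against a median of 7 over all windows. The GC content was 64.3% and 70.3% against a median of 52.7%. A TATAAA run, found in 13.6% of windows on either strand, was in neither. Retinoic acid receptors bind repeats of AGGTCA. A pair of AGGTCA in the same direction with 5 bases between was in neither window, nor was a pair with 2 bases between, and 0.00913% of all windows hold each. A match of letters is a description of the sequence and not a measured binding site.

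The libraries held 30869766 to 40236799 reads in genes. Replicate 2 of WT after RA stood apart in the repeat table, where rRNA repeats took 41.7% of its repeat reads against 4.14% to 7.28% in the others. The summed level of 10 embryonic stem cell markers was 171356 to 176438 normalized counts in WT and 150777 to 154177 in DKO in serum/LIF. After RA it was 5985 to 6461 in WT and 11535 to 12392 in DKO, and none of the 10 was at 0 in all libraries of a group. All 10 fell with RA in both genotypes, while all 10 genes of a retinoic acid response list rose. Of all tested genes, 39.2% were lower after RA in WT and 38.2% in DKO, while 41.4% and 40.2% were higher. Between the genotypes in serum/LIF, 17.8% of all genes were higher in DKO and 15.4% lower. After RA these shares were 22% and 20.7%. Of 10 fibroblast markers, 7 were higher in DKO than in WT in serum/LIF and 0 lower, with summed levels of 22368 to 23682 against 7516 to 7577 and none at 0 in a group. After RA 5 of them were higher, 1 was lower and 4 were uncalled. Their median log2 fold change was 0.04 after RA, against 1.23 in serum/LIF. The summed levels after RA were 64305 to 66922 in DKO and 50800 to 52460 in WT. Of 7 tested neural progenitor markers, 3 were higher in DKO in serum/LIF and 1 lower, and after RA 2 were higher and 5 lower. Neurog2 of that list was at 0 in DKO in serum/LIF. Of 8 neuron markers, 4 were higher and 1 lower in DKO in serum/LIF (2 higher without any 1 DKO replicate, 1 without WT replicate 2), and after RA 1 was higher and 7 lower. In bulk RNA, fewer cells of a type and less RNA per cell cannot be told apart.

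The knockout genes carried almost no reads in the DKO libraries. The values are normalized counts, which are reads divided by a size factor of the library. Rlf stood at 3701, 3621 and 3510 in the 3 WT replicates in serum/LIF and at 0, 3.52 and 3.38 in DKO, where the last 2 are 3 reads each. After RA it stood at 2627, 2472 and 2733 in WT and at 0.948, 0 and 0 in DKO, with 1 read in all. Rlf was thus 1571-fold higher in WT than in DKO in serum/LIF (95% counting interval 722 to 4283) and 8530-fold higher after RA (1531 to 336955). With each library left out in turn, the fold ran from 1047 to 2117 in serum/LIF, lowest without DKO replicate 1. After RA it was 5682 and 5607 without DKO replicates 2 and 3, and at least 1924 without DKO replicate 1, which held the only read. These intervals cover counting error only, since reads are not independent molecules.

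Zfp292 had 0 reads in all 6 DKO libraries. In WT it stood at 5273, 4801 and 4652 in serum/LIF and at 3074, 2859 and 3566 after RA. With 3 reads over the group in place of 0, the level of Zfp292 in DKO was at least 4276-fold lower than in WT in serum/LIF. After RA it was at least 3454-fold lower. These counts match the genotype labels in all 12 libraries. The position of the reads along each transcript was not analysed here.

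**Figure D1:**
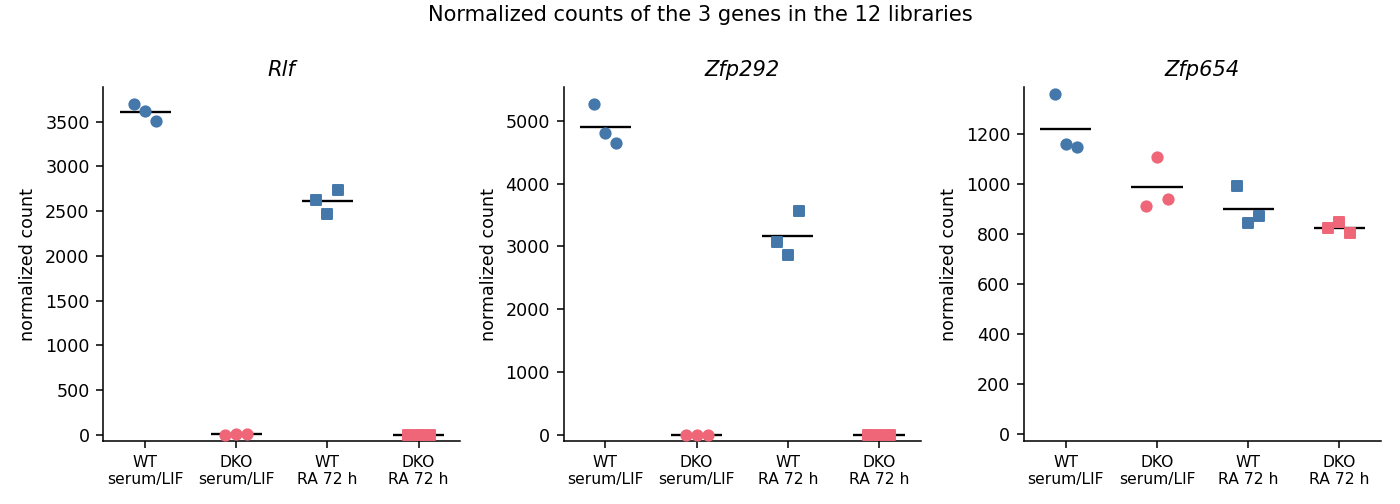
Normalized counts of Rlf, Zfp292 and Zfp654 in each library, with a bar at the mean of each group of 3. Rlf and Zfp292 are at or next to 0 in DKO, while Zfp654 is present in all 4 groups, between 804 and 1358.

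Zfp654 was the least expressed of the 3 genes in WT cells. Levels can be compared between genes per kilobase of transcript. In serum/LIF the WT means were 578 normalized counts per kb for Rlf, 492 for Zfp292 and 195 for Zfp654, and after RA they were 418, 317 and 144. Rlf was thus 2.97 times and Zfp292 2.52 times the level of Zfp654 in serum/LIF, and 2.90 and 2.20 times after RA. Per kb, the ranges of the 3 replicates did not overlap between any pair of the 3 genes in either WT group. The order Rlf, Zfp292, Zfp654 thus held per kb in each WT library, with the transcript lengths given above. In normalized counts not divided by length, Zfp292 stood above Rlf in each WT library. Among 16759 genes with a transcript length, the WT level per kb in serum/LIF ranked at percentile 72.7 for Rlf, 69.5 for Zfp292 and 53.7 for Zfp654.

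Zfp654 was not higher in the DKO cells. In serum/LIF it stood at 1358, 1158 and 1146 normalized counts in WT and at 912, 1108 and 938 in DKO. Each DKO library lay below each WT library, and WT replicate 1 was the highest of the 12. The WT mean was 1221 ± 119 (SD, n = 3). The DKO mean was 986 ± 106, which is 80.8% of it. In limma the log2 fold change was -0.31 ± 0.08 (SE), with an adjusted p of 0.00542 and a 95% interval from -0.48 to -0.14. Zfp654 therefore passed the test as lower. Of all 15750 tested genes, 15.4% were called lower in this comparison and 33.2% were called in either direction, and groups did not overlap, with DKO lower, for 21.9%. Its fold change ranked at percentile 15.8 of all tested genes. Without WT replicate 1 the log2 fold change was -0.23 and the adjusted p 0.0503. The fibroblast markers given above differed between these same groups, and their part in the result was not tested.

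After RA no difference between the genotypes was called for Zfp654. It stood at 992, 842 and 871 in WT and at 825, 849 and 804 in DKO, and the groups overlapped, since DKO replicate 2 lay above WT replicate 2. The means were 902 ± 79.3 in WT and 826 ± 22.5 in DKO, or 91.6% of WT. The log2 fold change was -0.12 ± 0.08 with a limma adjusted p of 0.244, while 42.7% of all tested genes were called. The 95% interval, from -0.29 to 0.05, corresponds to a DKO level between 0.815 and 1.03 times that of WT. A p that misses the threshold does not show that the groups were alike. Without WT replicate 1 after RA, the highest of its group, the log2 fold change was -0.05 ± 0.09 and the adjusted p 0.680. Without replicate 2 of WT after RA, the library that stood apart, the log2 fold change was -0.17 and the adjusted p 0.144. The embryonic stem cell and neuron markers given above differed between these groups, and their part in the result was not tested.

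The genotype difference of Zfp654 in the 2 conditions was compared directly. The interaction, which is the log2 difference after RA minus that in serum/LIF, was 0.19 ± 0.12 with a limma adjusted p of 0.248 and an interval from -0.06 to 0.43, against 30.8% of genes called. With each library left out it ran from 0.11, without WT replicate 1 in serum/LIF, to 0.27, with adjusted p values of 0.0776 to 0.540. The mean log2 difference over both conditions was -0.22. With the genotype labels permuted within each condition, its exact two-sided permutation p was 0.01 over 400 arrangements, where 0.005 is the smallest possible. Leaving out each library in turn gave -0.26 to -0.18, with a permutation p of 0.005 to 0.045. This p is not adjusted, and the share of all genes that reach it was not computed. Within 1 condition an exact permutation test of 3 against 3 cannot go below 0.1. It gave 0.1 in serum/LIF and 0.2 after RA. In the authors' deposited table, Zfp654 has a log2 fold change of -0.31 with an adjusted p of 0.00377 in serum/LIF, and of -0.13 with 0.285 after RA.

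**Figure D2:**
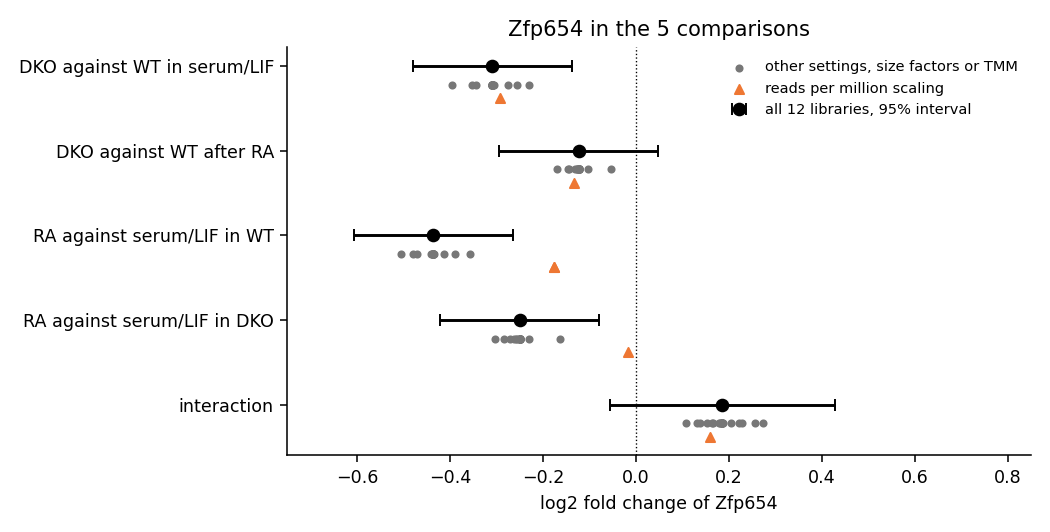
Log2 fold change of Zfp654 in the 4 comparisons of groups and in the interaction, with 95% intervals from limma as black points and bars. Grey points are the other settings with size factors or TMM, and orange triangles are libraries scaled to their totals. The interval lies below 0 for DKO against WT in serum/LIF and for both RA comparisons, and includes 0 for DKO against WT after RA and for the interaction.

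The level lost with Rlf and Zfp292 was set against the change of Zfp654 by summing the 3 genes per kb. In serum/LIF the WT libraries summed to 1265 ± 65.5 (SD, n = 3) and the DKO libraries to 158 ± 17.2, or 12.5% of WT. After RA the WT sum was 879 ± 59.1 and the DKO sum 132 ± 3.59, or 15% of WT. The DKO libraries lay far below all WT libraries in both conditions. The exact two-sided permutation p was 0.1 in each, the smallest that 3 against 3 allows. The fall in the sum follows from the knockout itself. Of the difference of -1107 per kb in serum/LIF, Zfp654 gave -37.5, and of -747 after RA it gave -12.1, so its mean difference had the same sign as the loss. Zfp654 made up 15.4% of the WT sum in serum/LIF and 16.4% after RA. In DKO it was nearly the whole sum.

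**Figure D3:**
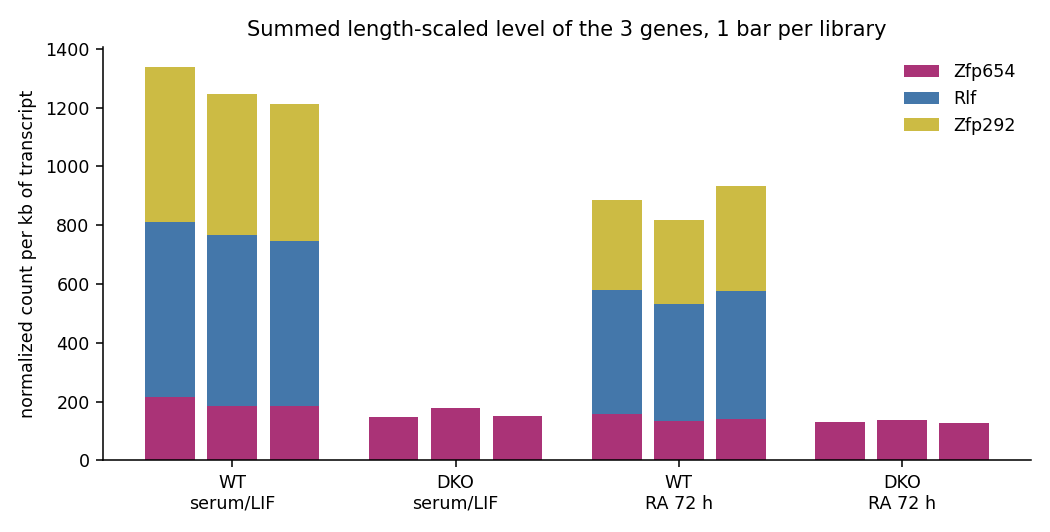
Summed normalized counts per kb of Rlf, Zfp292 and Zfp654 with 1 bar per library, stacked by gene. The WT bars lie between 817 and 1338, and the DKO bars, nearly all Zfp654, between 128 and 178.

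With RA the 3 genes had lower normalized counts in WT cells, each with groups that did not overlap. Rlf after RA was at 72.3% of its serum/LIF mean, Zfp292 at 64.5% and Zfp654 at 73.8%. For Zfp654 the log2 fold change was -0.44 ± 0.08 with a limma adjusted p of 4.12e-05. Zfp292 had -0.64 ± 0.22 with an adjusted p of 0.0107. Rlf had -0.47 ± 0.45 with an adjusted p of 0.342, and was not called in this fit. Most of the transcriptome differed between the media, with 80.6% of genes called, 39.2% called lower, and 39.8% lower with groups that did not overlap. A lower level with RA was therefore common among all genes. Without the library that stood apart, replicate 2 of WT after RA, the log2 fold change was -0.39 for Zfp654, with an adjusted p of 0.000408. It was -0.43 for Rlf and -0.57 for Zfp292, with 0.425 and 0.0779. Zfp292 was not called in this fit without WT replicate 1 or 2 of either condition, with adjusted p values of 0.0501 to 0.0790.

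The SE of Rlf and Zfp292 differed between fits. Among DKO libraries Rlf varied between 0 and 3 reads, while Zfp292 had 0 in each. In all 12 libraries but without limma's trend and robust settings, Zfp292 had an SE of 0.08 and an adjusted p of 3.15e-05. In a fit of the 6 WT libraries alone, Rlf had the same log2 fold change of -0.47 with an SE of 0.05 and a limma adjusted p of 4.70e-07. Zfp292 had an adjusted p of 1.04e-06 there. In that fit 39% of genes were called lower. On the recovered reads of all libraries, edgeR's quasi-likelihood test gave Rlf an adjusted p of 2.53e-08, with 39.4% of genes called lower. The authors' deposited values for RA in WT are -0.47 for Rlf, with an adjusted p of 1.89e-14, and -0.63 for Zfp292, with 2.66e-15.

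In DKO cells only Zfp654 is left to follow. It was at 83.7% of its serum/LIF level after RA, with a log2 fold change of -0.25 ± 0.08 and a limma adjusted p of 0.00854. All 3 RA libraries lay below all 3 serum/LIF libraries. In this comparison 78.3% of genes were called, 38.2% lower, and 39.2% were lower with groups that did not overlap. Without DKO replicate 2 in serum/LIF, the highest of its group, the log2 fold change was -0.16 and the adjusted p 0.0847. In the authors' deposited table Zfp654 has -0.44 with an adjusted p of 3.07e-06 for RA in WT, and -0.26 with 0.00925 in DKO. The RA comparisons share libraries with the genotype comparisons, so these values are not independent of those above.

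The size of the RA difference depended on how the libraries were scaled. Size factors left the median gene at a log2 fold change of 0.04 in both genotypes. Scaling each library to its total of reads in genes instead, as CPM does, moved it to 0.29 in WT and 0.27 in DKO. With this scaling to totals, the WT log2 fold changes were -0.21 for Rlf, -0.38 for Zfp292 and -0.18 for Zfp654, with limma adjusted p values of 0.664, 0.118 and 0.0555 in the fit of all 12 libraries. In the 6 WT libraries alone they were 0.00157, 0.000245 and 0.0657. In DKO the value for Zfp654 was -0.017, with an adjusted p of 0.861. Relative to the median gene the 3 genes hardly moved with the scaling. This follows from the arithmetic, since a change of scaling shifts all genes of a comparison almost alike, and it is no test of the RA difference. In WT, Rlf was -0.51 under size factors and -0.50 under totals, Zfp292 -0.67 under both, and Zfp654 -0.47 under both. In DKO, Zfp654 was -0.29 and -0.28. Of the genes called with RA in WT, 51.3% were higher under size factors and 63.1% under totals, and in DKO 51.3% and 62.9%.

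**Figure D4:**
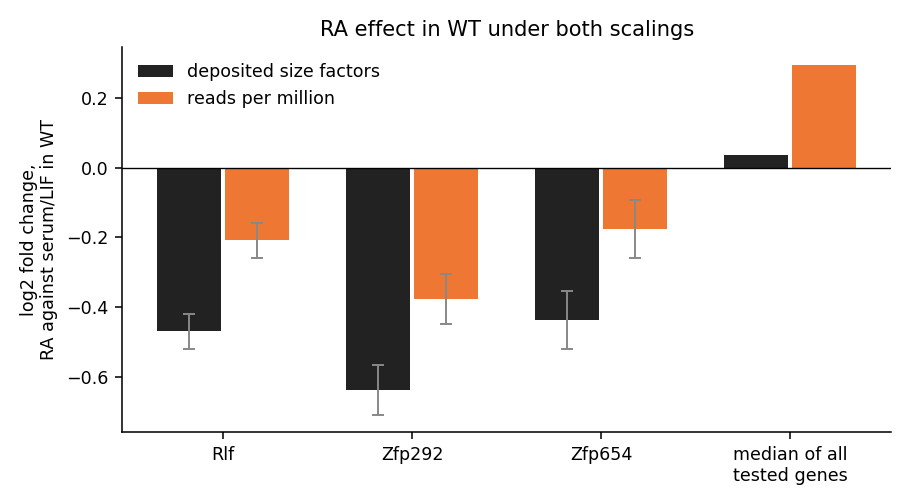
Log2 fold change of RA against serum/LIF in WT for the 3 genes and the median of all tested genes, under the deposited size factors and under scaling to reads per library total, with error bars of 1 SE from the fit of the 6 WT libraries. All 3 genes are below 0 under both scalings, and Zfp292 has the lowest value at -0.64 and -0.38.

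Of the 16 CoREST complex genes, 43.8% were called between the genotypes in each condition, against 33.2% of all tested genes in serum/LIF and 42.7% after RA. In serum/LIF 1 of 16 was higher and 6 were lower, against 17.8% and 15.4% of all tested genes, and 9 were uncalled. The median log2 fold change was -0.07, against -0.01 over all genes. The count of lower members was 3, 2 and 3 without WT replicates 1, 2 and 3 and 3 without DKO replicate 3. Kdm1a, which encodes LSD1, was lower by a log2 fold change of -0.12 ± 0.04 (limma adjusted p 0.0160, and not called without WT replicate 2), and the corepressor gene Ctbp2 by -0.27 ± 0.04 (8.92e-06). After RA 4 were higher and 3 lower, against 22% and 20.7% of all genes, led by Gse1 at 0.47 ± 0.04 (4.29e-09). Without WT replicate 3 after RA, 1 was lower. With RA, 8 of 16 rose and 8 fell in each genotype, against 41.4% and 39.2% of all genes in WT and 40.2% and 38.2% in DKO. Under scaling to totals, 5 fell in DKO, where 4626 of all 15750 tested genes fell under that scaling. In WT, Ctbp2 fell by 2.32, Rest, the gene of the repressor of neuronal genes, fell by 2.35, and Gse1 rose by 1.58 on the log2 scale. The interaction was called above 0 for 4 members and below 0 for 1, against 14.8% and 16% of all genes. None was below 0 without WT replicate 2 or DKO replicate 1 in serum/LIF, or DKO replicate 1 after RA.

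Of 16 genes from the silencing screen that also gave Rlf alleles, 4 were higher and 1 lower in DKO in serum/LIF, and 5 were higher and 3 lower after RA. These are 25% and 6.25% of the list in serum/LIF, against 17.8% and 15.4% of all genes, and 31.3% and 18.8% after RA, against 22% and 20.7%. The histone methyltransferase gene Suv39h1 was higher in serum/LIF, with a log2 fold change of 0.59 ± 0.05 (limma adjusted p 1.53e-09), as was Foxo3, a forkhead factor, at 0.31 ± 0.05. After RA, Foxo3 was higher by 0.56 ± 0.05 and the chromatin remodeller gene Smarca5 was lower, at -0.39 ± 0.04. With RA, 3 rose and 10 fell in WT, and 4 rose and 10 fell in DKO, against 41.4% and 39.2% of all genes in WT and 40.2% and 38.2% in DKO. Under scaling to totals, 8 rose in WT and 7 in DKO. Of all 15750 tested genes, 8135 rose in WT and 7856 in DKO under that scaling. In WT the DNA methyltransferase gene Dnmt3b fell by 3.57 on the log2 scale, while Suv39h1 rose by 2.30. Suv39h1 was also called higher with RA in DKO. The corepressor gene Trim28 fell in both genotypes, by 1.28 in DKO. The interaction was called above 0 for 4 members and below 0 for 3, against 14.8% and 16% of all genes. The embryonic stem cell markers above moved with RA in the same libraries, and their part in these changes was not tested.

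The fall of Zfp654 was also read against other genes named as zinc finger proteins. Of 350 tested genes whose symbol is Zfp and a number, without Zfp292 and Zfp654, 39 were higher and 68 lower in DKO in serum/LIF, and 40 were higher and 78 lower after RA. These are 11.1% and 19.4% of the list in serum/LIF, against 17.8% and 15.4% of all genes, and 11.4% and 22.3% after RA, against 22% and 20.7%. Their median log2 fold change was -0.06 in serum/LIF and -0.06 after RA, against medians of -0.01 and 0.01 over all tested genes. With RA, 134 rose and 140 fell in WT, and 139 rose and 130 fell in DKO. These are 38.3% and 40% of the list in WT, against 41.4% and 39.2% of all genes, and 39.7% and 37.1% in DKO, against 40.2% and 38.2%.

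The genes most like Zfp654 in pattern were found by Pearson's r of log2 values over the 12 libraries. The ranking covered 11616 genes with a mean of 100 or more. Predicted genes, named Gm and a number or ending in Rik, were left out of each such ranking. The most alike were Zfp945 (r 0.96) and Zfp975 (0.95), which are both named as zinc finger genes, then Tbl2 (0.94), Patl2 (0.93) and Zfp239 (0.93). The r was over 0.9 for 33 genes. Rlf ranked 4548 with an r of 0.53 and Zfp292 ranked 4710 with 0.50, since both are near 0 in DKO. Within the 6 WT libraries, Pgap1 was the gene most like Rlf and Sec16a the gene most like Zfp292, with an r of 1.00 each. There the r with Rlf was 0.99 for Zfp292 and 0.92 for Zfp654. An r over 0.9 with Rlf was common, at 4211 of 11636 genes, because the 6 libraries fall into 2 conditions. These values describe the libraries and carry no test.

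**Figure D5:**
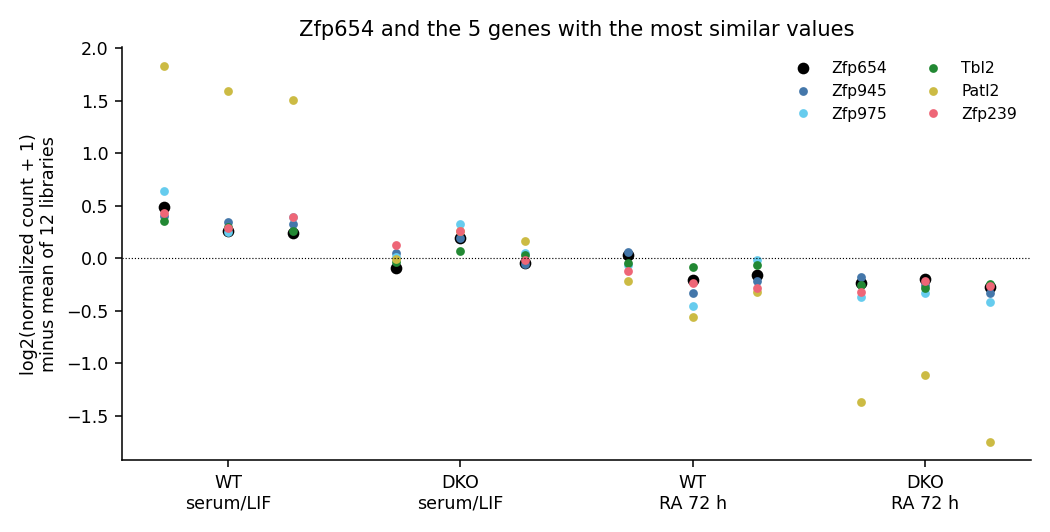
Levels of Zfp654 and of the 5 ranked genes with the highest Pearson r with it over the 12 libraries. The log2 scale is centred on each gene's mean, and predicted genes were left out. Points are libraries, and those of Patl2 spread most. The r values run from 0.93 for Zfp239 to 0.96 for Zfp945.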

How the data were processed

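Per the submitters' processing notes, the tools were STAR 2.7.11b, Trim Galore 0.6.10, DESeq2 1.44.0 and Subread 2.0.6, on mm10. How strand and multiply mapped reads were handled is not stated there. For 17901 genes, the deposited library columns hold a signal in which each value is whole reads over a size factor (tolerance 0.01 of a read). Per the file headers, the deposit also holds the authors' log2 fold changes and adjusted p-values. These were quoted for Zfp654 and, for RA in WT, for Rlf and Zfp292.

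Values were transformed as log2(value + 1). The filter asked for 10 or more in at least 3 libraries (15750 genes passed, 2151 did not). limma 3.58.1 (R 4.3.3, trend and robust) was fitted over all 12 libraries with 1 mean per group, with calls at an adjusted p (Benjamini-Hochberg) under 0.05. edgeR 4.0.16 and DESeq2 1.42.0 on recovered reads, other filters, pseudocounts and scalings, and each library left out were alternatives. Scaling to library totals (CPM) was added after the data had been seen. The fit was tested on simulated data. Transcript lengths came from GENCODE on mm10 for 16759 genes. Counting intervals are 95%, and 3 reads over a group stood in for 0.

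The 3 genes and all lists (CoREST complex, silencing modifiers, zinc finger names, and markers of embryonic stem cells, retinoic acid response, neural progenitors, neurons and fibroblasts) were chosen with earlier results of these data known. The rule for named genes takes the 3 genes, the 5 most alike in pattern to each, and up to 3 called members of the first 2 lists per comparison with the smallest adjusted p. The text names part of them. Whether replicate numbers pair the libraries is not known. Of 18 correlations between same-numbered libraries, 0 exceeded 0.1, which cannot exclude pairing, and the main fit used none. Promoter sequences are from RefSeq (GRCm38.p6), where 2 of the 3 genes matched.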

Additional observations from a re-analysis of the deposited data

Results flagged for a closer look

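For 7 genes named above, the genotype difference after RA departed from that in serum/LIF by limma's interaction test. The interaction, on the log2 scale, was 0.3985 for Ctbp2, with -0.27 in serum/LIF and 0.13 after RA. It was 0.5397 for Gse1 (-0.07 and 0.47) and 0.4908 for Rest (-0.19 and 0.30). Suv39h1 had -0.8532, from 0.59 in serum/LIF to -0.27 after RA. Foxo3 had 0.2525 (0.31 and 0.56), Trim28 had 0.1642 (-0.07 and 0.09) and Smarca5 had -0.2769 (-0.12 and -0.39). Adjusted p values ran from 1.68e-09 for Suv39h1 to 0.0143 for Foxo3. Of all tested genes, 30.8% were called for the interaction, and Zfp654 was not among them. The rule for named genes picks list members partly by this same test, so passing it is no separate result about these genes.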

How the results depend on the processing

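No difference given above for Rlf, Zfp292 or Zfp654 changed sign under an alternative that was run. The genotype difference of Zfp654 in serum/LIF ranged from -0.40 to -0.23 with each library left out and was not called without WT replicate 1. Its RA difference in DKO ranged from -0.30 to -0.16, not called without DKO replicate 2 in serum/LIF, and was -0.017 with libraries scaled to their totals. Its RA difference in WT was -0.18 under totals, and also -0.18 with both totals and the 6 WT libraries alone. For Zfp292 the RA difference in WT was -0.38 under totals and ranged from -0.73 to -0.57 with a library left out, uncalled without WT replicate 1 or 2 of either condition. Rlf with RA in WT was called at -0.47 with a pseudocount of 5, at -0.47 by edgeR, at -0.47 by DESeq2, at -0.47 in the WT libraries alone, and at -0.21 there under totals. The bounds on the loss of Zfp292 were 12827 and 10363 with 1 read in place of 3, and ranged from 2823 to 4397 and from 2271 to 3610 with a library left out.

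A replicate block changed no call given above for the 3 genes. Zfp654 in serum/LIF had -0.31 with a limma adjusted p of 0.00634 under the block, and genes called there went from 5230 to 5061. Of the 12 libraries, 6 correlated best with their own number in another group. Depth limits Rlf in DKO, where a fold rests on 6 reads in serum/LIF and 1 after RA.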
